A study of Arabidopsis thaliana with 24 samples.

Results

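The genes described here are 42 loci of Arabidopsis thaliana, given as a list of identifiers, from the families of xyloglucan endotransglucosylase/hydrolases (XTH) and alpha-expansins (EXPA). They comprise 25 XTH genes, with TCH4 (XTH22) among them, and 17 EXPA genes, out of 33245 gene identifiers in the count tables. Of the 42, 40 had enough reads to be tested. EXPA2 (0 to 5 counts per library) and EXPA20 (0 to 3 counts per library) did not. A further 17 XTH and EXPA loci were not among the 42, and the 6 of those that could be tested are described apart at the end of the ATP results. Their mRNA was counted by sequencing in whole seedlings after 30 min with 150 µM ATP or with a mock treatment, in the double mutant p2k1-3 bdg-8, the single mutants bdg-8 and p2k1-3, and the wild type Col-0. Each of these 8 groups had 3 libraries, and both treatments were given to every genotype. The mutants carry lesions in P2K1 (AT5G60300), a lectin receptor kinase and the receptor for extracellular ATP, and in BDG1 (AT1G64670), an epidermal hydrolase required for the cuticle. Each mutation was represented by 1 allele, and neither the seedlings' age nor the composition of the mock treatment is given in the labels.

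Growing plant cells are held by a wall in which cellulose microfibrils are coated and joined by xyloglucan. XTH enzymes cut a xyloglucan chain and join the cut end to another chain, or in some members to water, and so remodel or incorporate this polymer. Alpha-expansins loosen the bonding between the polymers without cutting them and work best in an acid wall. XTH genes fall into the sequence groups I, II and III, of which group III holds the members with hydrolase activity. TCH4, a group II member, was first known as a gene induced by touch, and it remains a common marker of mechanical and hormonal stimulation.

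In all groups replicate 3 lay between replicates 1 and 2. Over 6063 genes with a mean of at least 1000 counts, the squared distances of replicate 3 from replicates 1 and 2, after removal of counting error, summed to 0.566 to 1.03 times the distance between replicates 1 and 2, where 3 equally variable independent libraries would give 2. Member counts are therefore also given for replicates 1 and 2 alone. If replicate 3 is not independent of the other libraries, the spread within groups is understated. The SEs and p-values of the fit on all libraries would then be too small. The labels do not say that replicates were separate cultures, so p-values measure only how these samples spread, and that spread may be technical. Libraries held 25856588 to 35239775 counts in genes. P2K1 was at 12.1 ± 0.927 CPM (counts scaled by library size) in mock-treated p2k1-3 and 21.4 ± 0.821 CPM in mock-treated Col-0, and BDG1 at 14.2 ± 1.77 CPM in mock-treated bdg-8 and 25.4 ± 0.451 CPM in mock-treated Col-0 (SD, n = 3 each). With ATP, BDG1 was at 112 ± 2.28 CPM in p2k1-3 bdg-8, 107 ± 9.87 CPM in bdg-8 and 26.01 ± 1.76 CPM in Col-0 (SD, n = 3 each), so the lines with bdg-8 were above Col-0 with ATP and below it with mock. The ATP response of BDG1 differed between bdg-8 and Col-0 by 2.88 ± 0.10 on the log2 scale (SE, edgeR, adjusted p = 2.53e-15). All of the markers checked for green tissue, root, root hair and dividing cells were above 1 CPM in every group, so the libraries held shoot and root RNA. In such bulk samples, fewer cells of a type and less RNA per cell cannot be told apart.

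Among the 42 loci, ATP moved most of the called XTH genes and all of the called alpha-expansins in opposite directions. The 42 were chosen with earlier results of these data known, so their shares need not hold for the whole families. The alpha-expansin EXPA12, outside the 42, was called higher in Col-0. XTH genes, mainly of group II, rose by up to 36.03-fold (TCH4 in bdg-8), while EXPA1 fell furthest among the EXPA members and no EXPA member was called higher in any genotype. XTH25 passed the filter on low counts through the ATP libraries where it is high, so the counts and medians of ATP against mock within a genotype leave it out, a choice made after its values were seen. This leaves 24 XTH genes and 39 tested members. With XTH25, the members called were 35 of 40 in p2k1-3 bdg-8, 30 in bdg-8, 30 in p2k1-3 and 28 in Col-0, and the XTH medians 0.69 in p2k1-3 bdg-8, 0.59 in bdg-8, 0.63 in p2k1-3 and 0.53 in Col-0. Values are edgeR log2 fold changes ± SE. Genes with an adjusted p under 0.05, corrected over all 20995 genes tested, are referred to as called. In Col-0, ATP changed 28 of these 39 members, 15 higher and 13 lower. Over all genes 21.8% were called, 13.2% higher and 8.67% lower. XTH genes made up all 15 of the rises and 2 of the falls, and EXPA genes the other 11 falls. The median log2 fold change was 0.51 over the 24 XTH genes and -0.37 over the 15 EXPA genes, against -0.01 over all genes. Replicates 1 and 2 alone gave 13 XTH rises, 1 XTH fall and 9 EXPA falls, where 8.74% of all genes were called higher and 3.13% lower (11.9% in all).

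The same split appeared in each mutant. In p2k1-3, 15 XTH genes rose and 2 fell, and 12 EXPA genes fell, which makes 29 of 39 members against 20.4% of all genes (11.9% higher and 8.53% lower). On replicates 1 and 2 alone there were 15 XTH rises, 1 XTH fall and 6 EXPA falls, against 8.96% of all genes (6.57% higher and 2.39% lower). In bdg-8, 14 XTH genes rose and 4 fell, and 11 EXPA genes fell, together 29 of 39 members against 36.3% of all genes (18.7% higher and 17.7% lower). On replicates 1 and 2 alone there were 13 XTH rises, 2 XTH falls and 10 EXPA falls, against 23.1% of all genes (13.7% higher and 9.4% lower). The double mutant had the most members called, 34 of 39 against 33.7% of all genes (17.1% higher and 16.5% lower). There 14 XTH genes rose, 6 XTH genes fell and 14 EXPA genes fell. Its replicates 1 and 2 alone gave 13 XTH rises, 3 XTH falls and 11 EXPA falls, against 20.3% of all genes (12.3% higher and 8.05% lower). The median log2 fold change was 0.58 over the XTH genes, -0.69 over the EXPA genes and -0.02 over all genes in p2k1-3 bdg-8, 0.57 over the XTH genes, -0.48 over the EXPA genes and -0.02 over all genes in bdg-8, and 0.63 over the XTH genes, -0.43 over the EXPA genes and -0.01 over all genes in p2k1-3. No EXPA member reached even an unadjusted p under 0.05 in the upward direction in any genotype, and DESeq2 called none higher.

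Taken over all 4 genotypes, 13 of the 25 XTH members (52%) were called higher in every one and 1, XTH32, was called lower in every one. Among all genes tested, 8.17% were called higher and 2.88% lower in every genotype. Of the 15 tested EXPA members, 10 (66.7%) were called lower in every genotype and 0 higher. For replicates 1 and 2 alone these counts were 12 XTH genes higher, 0 lower, and 6 EXPA genes lower, where 5.39% of all genes were higher and 1.03% lower in every genotype. XTH8, XTH10, XTH21 and EXPA16 were called in no genotype. XTH6 was the member with opposite calls, higher in p2k1-3 (0.57 ± 0.10) and lower in bdg-8 (-0.45 ± 0.11) and p2k1-3 bdg-8 (-0.63 ± 0.10).

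**Figure D1:**
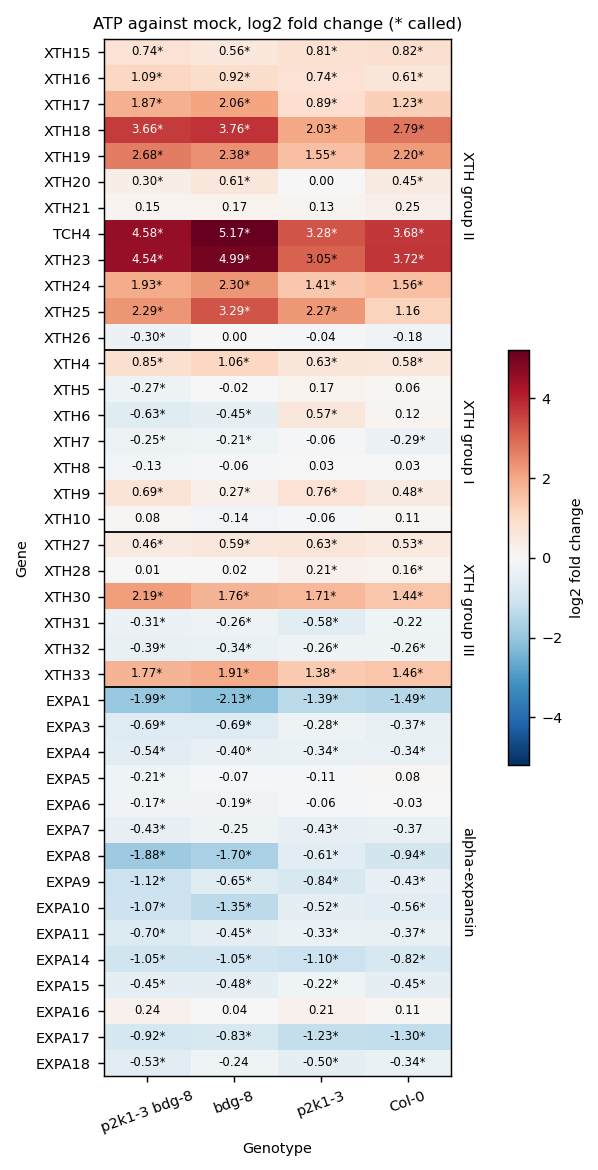
Log2 fold change of ATP against mock for the 40 tested genes (rows, grouped by sequence group) in the 4 genotypes (columns), with called values starred. The values of XTH25 are shown as a description, starred or not. The upper block of XTH group II holds the largest rises, to 5.17 for TCH4 in bdg-8, and the alpha-expansin block at the bottom is almost wholly on the falling side, to -2.13 for EXPA1 in bdg-8.

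Group II held the largest responses. TCH4 (AT5G57560) had 896, 879 and 877 CPM in ATP-treated p2k1-3 bdg-8 and 44.3, 29.9 and 36.5 CPM in mock-treated p2k1-3 bdg-8. It had 918, 872 and 902 CPM in ATP-treated bdg-8 and 28.9, 22.3 and 23.4 CPM in mock-treated bdg-8. ATP took it well clear of every mock library, and to nearly the same level in both lines with the bdg-8 mutation. In p2k1-3 it had 370.3, 422 and 398 CPM with ATP and 39.6, 40.96 and 41.99 CPM with mock. Col-0 gave 494, 487 and 491 CPM with ATP and 33.5, 42.1 and 39.1 CPM with mock. The ATP libraries of p2k1-3 all lay below those of Col-0, and those of bdg-8 all lay above. The log2 fold change of TCH4 was 4.58 ± 0.10, adjusted p = 4.76e-21 in p2k1-3 bdg-8, and 5.17 ± 0.11, adjusted p = 7.39e-22 in bdg-8. It was 3.28 ± 0.10, adjusted p = 6.36e-18 in p2k1-3, and 3.68 ± 0.10, adjusted p = 3.99e-19 in Col-0.

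XTH23 (AT4G25810), a group II enzyme, had fold changes near those of TCH4. It had 301, 285 and 294 CPM with ATP and 16.5, 8.88 and 12.03 CPM with mock in p2k1-3 bdg-8. In bdg-8 it had 270.4, 258 and 259 CPM with ATP and 9.52, 7.23 and 7.93 CPM with mock. Both lines carrying bdg-8 thus reached ATP levels far above those of the other lines. In p2k1-3 the libraries held 91.1, 90.1 and 91.9 CPM with ATP and 9.57, 12.1 and 11.3 CPM with mock. In Col-0 they held 89.3, 96.2 and 93.3 CPM with ATP and 6.94, 7.18 and 7.02 CPM with mock. The ATP levels of p2k1-3 and Col-0 overlapped, whereas every mock library of p2k1-3 was above every one of Col-0. Log2 fold changes were 4.54 ± 0.11 in p2k1-3 bdg-8, 4.99 ± 0.12 in bdg-8, 3.05 ± 0.11 in p2k1-3 and 3.72 ± 0.12 in Col-0 (adjusted p = 7.42e-21 to 2.43e-16).

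XTH24, XTH18 and XTH19 (AT4G30270, AT4G30280 and AT4G30290) are neighbours in the order of genes on the TAIR10.1 assembly, and all 3 rose in every genotype. XTH18 had 407, 410.4 and 389 CPM with ATP and 33.02, 26.8 and 29.02 CPM with mock in bdg-8. In Col-0 it had 145, 137 and 138 CPM with ATP and 19.6, 22.3 and 18.8 CPM with mock. In p2k1-3 its ATP libraries held 102, 106 and 99.3 CPM against 24.9, 26.6 and 24.1 CPM with mock, so ATP brought p2k1-3 below Col-0 without overlap although its mock libraries started above. The ATP libraries of p2k1-3 bdg-8 held 381, 351 and 361 CPM and its mock libraries 30.2, 27.7 and 28.7 CPM. The log2 fold changes of XTH18 were 3.66 ± 0.06 in p2k1-3 bdg-8, 3.76 ± 0.06 in bdg-8, 2.03 ± 0.06 in p2k1-3 and 2.79 ± 0.07 in Col-0 (adjusted p = 3.94e-23 to 1.28e-17).

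XTH19, known mainly from roots, was higher without ATP wherever bdg-8 was present. It had 84.1, 111 and 96.2 CPM with ATP and 19.9, 17.8 and 18.3 CPM with mock in bdg-8, and 32.5, 30.4 and 33.1 CPM with ATP and 5.65, 7.77 and 7.40 CPM with mock in Col-0. In p2k1-3 bdg-8 it had 137, 116 and 125 CPM with ATP and 20.3, 19.9 and 18.8 CPM with mock, and in p2k1-3 24.5, 23.4 and 23.3 CPM with ATP and 9.14, 7.26 and 7.89 CPM with mock. The mock libraries of bdg-8 and p2k1-3 bdg-8 lay above all those of Col-0 and p2k1-3. The log2 fold changes with ATP were 2.68 ± 0.09 in p2k1-3 bdg-8, 2.38 ± 0.09 in bdg-8, 1.55 ± 0.11 in p2k1-3 and 2.20 ± 0.11 in Col-0 (adjusted p = 6.85e-18 to 5.01e-11). XTH24, known for expression in meristems, had 473, 402 and 415 CPM with ATP and 96.6, 80.4 and 84.3 CPM with mock in bdg-8. It had 246, 251 and 248 CPM with ATP and 84.6, 83.6 and 84.6 CPM with mock in Col-0. The ATP groups of bdg-8 and Col-0 did not overlap while their mock groups did, and the log2 fold changes were 1.93 ± 0.10 in p2k1-3 bdg-8, 2.30 ± 0.10 in bdg-8, 1.41 ± 0.10 in p2k1-3 and 1.56 ± 0.10 in Col-0 (adjusted p = 8.8e-16 to 3.77e-11).

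**Figure D2:**
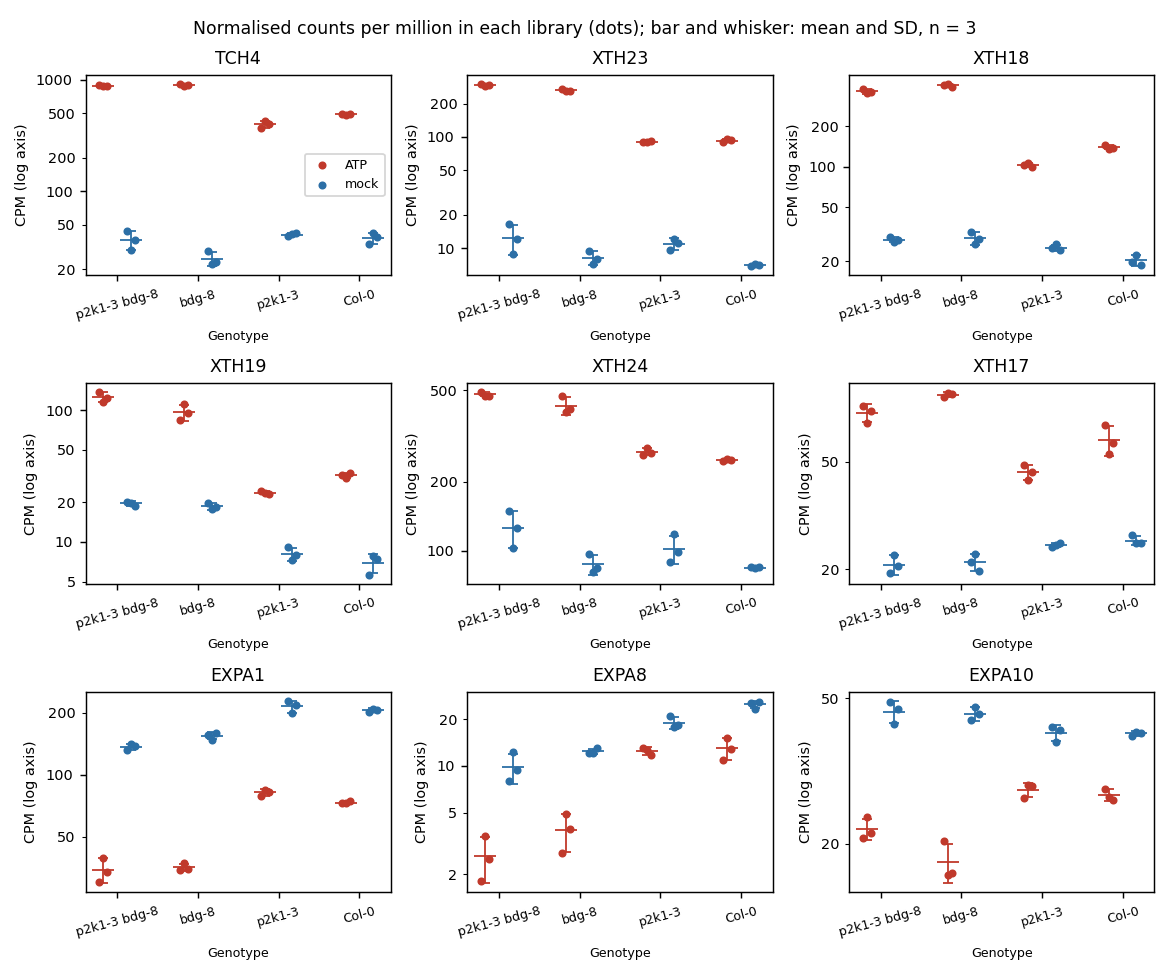
Normalised counts (CPM) of 9 genes in each of the 24 libraries (dots, log axis), by genotype, with ATP in red and mock in blue and the mean and SD of 3 libraries as bar and whisker. The 6 XTH genes have every ATP library above every mock library of the same genotype and the 3 EXPA genes every ATP library below. For all 6 XTH genes the ATP libraries of p2k1-3 bdg-8 and bdg-8 stand above those of p2k1-3 and Col-0, for XTH17 by a narrow margin.

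XTH17 (AT1G65310), a root-expressed relative of XTH18 and XTH19, had 86.4, 89.95 and 89.1 CPM with ATP and 21.3, 22.7 and 19.7 CPM with mock in bdg-8. In Col-0 it had 68.3, 53.2 and 58.7 CPM with ATP and 26.7, 24.97 and 24.95 CPM with mock. Its ATP libraries were higher in bdg-8 than in Col-0 and its mock libraries lower, and the log2 fold changes were 1.87 ± 0.08 in p2k1-3 bdg-8, 2.06 ± 0.08 in bdg-8, 0.89 ± 0.08 in p2k1-3 and 1.23 ± 0.08 in Col-0 (adjusted p = 4.36e-17 to 2.07e-09). XTH16 (AT3G23730) rose less, by log2 fold changes of 1.09 ± 0.06 in p2k1-3 bdg-8, 0.92 ± 0.06 in bdg-8, 0.74 ± 0.06 in p2k1-3 and 0.61 ± 0.06 in Col-0 (adjusted p = 6.18e-14 to 4.66e-09). It had 97.8, 101 and 101 CPM with ATP and 47.96, 45.1 and 47.8 CPM with mock in p2k1-3 bdg-8. In Col-0 the XTH16 values were 99.6, 88.3 and 98.1 CPM with ATP and 62.97, 60.95 and 63.3 CPM with mock, and the treatments did not overlap in either line. XTH15, a gene of shade and auxin responses, also rose in each genotype, by 0.56 in bdg-8 to 0.82 in Col-0. Its locus overlaps another protein-coding gene, so its counts are uncertain for want of the strand setting.

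XTH25 (AT5G57550), the gene next to TCH4, had only 1 to 59 counts per library. The libraries through which it passed the filter on low counts were those of p2k1-3 bdg-8 and bdg-8 with ATP, and its values are given as a description. Its levels were 1.32, 1.11 and 1.27 CPM with ATP and 0.393, 0.114 and 0.223 CPM with mock in p2k1-3 bdg-8. They were 1.92, 0.646 and 1.12 CPM with ATP and 0.161, 0.174 and 0.0348 CPM with mock in bdg-8. The log2 fold changes were 2.29 ± 0.39 in p2k1-3 bdg-8, 3.29 ± 0.46 in bdg-8, 2.27 ± 0.68 in p2k1-3 and 1.16 ± 0.64 in Col-0. Neighbouring XTH genes resemble each other in sequence, and reads that fit more than 1 place or gene were not counted to any gene, so levels within these clusters are uncertain. XTH26, known from root hairs, was the group II member that fell, and was called in p2k1-3 bdg-8 alone (-0.30 ± 0.10, adjusted p = 0.0227).

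In group I, XTH4 (AT2G06850) and XTH9 rose in every genotype, and both are known from stems and growing organs. XTH4 had 547, 572 and 563 CPM with ATP and 270.03, 270.4 and 267 CPM with mock in bdg-8. In Col-0 it had 578, 544 and 559 CPM with ATP and 372, 370.5 and 381 CPM with mock. The mock libraries of bdg-8 lay below those of Col-0 and the ATP libraries overlapped, and the log2 fold changes were 0.85 ± 0.04 in p2k1-3 bdg-8, 1.06 ± 0.04 in bdg-8, 0.63 ± 0.04 in p2k1-3 and 0.58 ± 0.04 in Col-0 (adjusted p = 4.36e-17 to 1.1e-11). XTH9 changed by 0.69 ± 0.07 in p2k1-3 bdg-8, 0.27 ± 0.07 in bdg-8, 0.76 ± 0.07 in p2k1-3 and 0.48 ± 0.07 in Col-0. XTH7 was called lower in p2k1-3 bdg-8, bdg-8 and Col-0, by at most -0.29, and XTH5 in p2k1-3 bdg-8 (-0.27).

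Group III was divided. XTH30 (AT1G32170) had 49.05, 41.4 and 43.7 CPM with ATP and 8.98, 10.2 and 10.2 CPM with mock in p2k1-3 bdg-8. In Col-0 it had 26.3, 31.3 and 27.2 CPM with ATP and 9.94, 11.8 and 9.53 CPM with mock. All XTH30 libraries with ATP were above those with mock, and the log2 fold changes were 2.19 ± 0.09 in p2k1-3 bdg-8, 1.76 ± 0.09 in bdg-8, 1.71 ± 0.09 in p2k1-3 and 1.44 ± 0.09 in Col-0 (adjusted p = 1.79e-16 to 1.92e-12). XTH33 (AT1G10550), whose protein is anchored at the cell surface, had 27.3, 24.98 and 27.1 CPM with ATP and 8.10, 5.56 and 7.41 CPM with mock in bdg-8. In Col-0 it had 18.5, 12.1 and 15.1 CPM with ATP and 5.79, 5.07 and 5.71 CPM with mock, and it rose by 1.77 ± 0.13 in p2k1-3 bdg-8, 1.91 ± 0.13 in bdg-8, 1.38 ± 0.14 in p2k1-3 and 1.46 ± 0.14 in Col-0 (adjusted p = 1.11e-11 to 3.77e-08). XTH27, known from leaf veins, was called higher in every genotype, by 0.53 in Col-0. XTH31 and XTH32, the group III members with xyloglucan hydrolase activity, went the other way. XTH32 changed by -0.39 ± 0.08 in p2k1-3 bdg-8, -0.34 ± 0.08 in bdg-8, -0.26 ± 0.08 in p2k1-3 and -0.26 ± 0.08 in Col-0, called in all 4, and XTH31 by -0.31 ± 0.08 in p2k1-3 bdg-8, -0.26 ± 0.08 in bdg-8, -0.58 ± 0.08 in p2k1-3 and -0.22 ± 0.08 in Col-0, called in all but Col-0.

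Among the EXPA members the deepest fall was in EXPA1 (AT1G69530), which is expressed in guard cells and expanding leaves. It had 30.2, 39.6 and 33.8 CPM with ATP and 132, 142 and 138 CPM with mock in p2k1-3 bdg-8. In bdg-8 it had 34.5, 37.2 and 34.9 CPM with ATP and 156, 148 and 160.5 CPM with mock. Both lines were below the others under either treatment. In p2k1-3 it had 79.1, 84.8 and 82.7 CPM with ATP and 228, 199.8 and 218 CPM with mock. Col-0 had 72.7, 73.04 and 74.5 CPM with ATP and 201, 210.3 and 206 CPM with mock. No ATP library overlapped the mock libraries of its genotype. The log2 fold changes of EXPA1 were -1.99 ± 0.07 in p2k1-3 bdg-8, -2.13 ± 0.07 in bdg-8, -1.39 ± 0.06 in p2k1-3 and -1.49 ± 0.06 in Col-0 (adjusted p = 1.37e-18 to 9.18e-15).

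EXPA8 (AT2G40610) had 1.81, 3.54 and 2.51 CPM with ATP and 7.96, 12.2 and 9.42 CPM with mock in p2k1-3 bdg-8. In bdg-8 its libraries held 2.76, 4.90 and 3.91 CPM with ATP and 12.2, 12.1 and 12.98 CPM with mock, and in Col-0 10.96, 15.3 and 12.8 CPM with ATP and 25.5, 23.5 and 26.1 CPM with mock. The mock libraries of bdg-8 overlapped the ATP libraries of Col-0. Its log2 fold changes were -1.88 ± 0.19 in p2k1-3 bdg-8, -1.70 ± 0.18 in bdg-8, -0.61 ± 0.14 in p2k1-3 and -0.94 ± 0.14 in Col-0 (adjusted p = 1.79e-08 to 0.00254). EXPA10 (AT1G26770), which promotes leaf and petiole growth, had 20.3, 16.4 and 16.7 CPM with ATP and 43.6, 47.5 and 45.3 CPM with mock in bdg-8. In Col-0 the EXPA10 libraries held 28.3, 26.9 and 26.4 CPM with ATP and 39.5, 40.5 and 40.3 CPM with mock. With ATP bdg-8 was below Col-0 and with mock above it, without overlap, and the log2 fold changes were -1.07 ± 0.07 in p2k1-3 bdg-8, -1.35 ± 0.07 in bdg-8, -0.52 ± 0.07 in p2k1-3 and -0.56 ± 0.07 in Col-0 (adjusted p = 2.44e-14 to 1.23e-06).

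EXPA9, EXPA14 and EXPA17 fell in every genotype too. EXPA9 (AT5G02260) had 14.1, 13.5 and 13.6 CPM with ATP and 29.9, 29.00 and 30.4 CPM with mock in p2k1-3 bdg-8, and changed by -1.12 ± 0.07 in p2k1-3 bdg-8, -0.65 ± 0.07 in bdg-8, -0.84 ± 0.07 in p2k1-3 and -0.43 ± 0.06 in Col-0 (adjusted p = 2.11e-12 to 1.28e-05). EXPA14 (AT5G56320) had 4.31, 4.59 and 4.74 CPM with ATP and 11.6, 7.51 and 10.1 CPM with mock in p2k1-3, and changed by -1.05 ± 0.14 in p2k1-3 bdg-8, -1.05 ± 0.14 in bdg-8, -1.10 ± 0.14 in p2k1-3 and -0.82 ± 0.13 in Col-0 (adjusted p = 8.56e-07 to 3.53e-05). Its ATP and mock libraries did not overlap in any genotype. EXPA17 (AT4G01630), which acts in lateral root emergence, had 2.65, 2.23 and 2.11 CPM with ATP and 5.58, 6.10 and 5.61 CPM with mock in Col-0. In bdg-8 it had 4.80, 4.33 and 4.61 CPM with ATP and 9.26, 7.12 and 8.04 CPM with mock. Its log2 fold changes were -0.92 ± 0.11 in p2k1-3 bdg-8, -0.83 ± 0.11 in bdg-8, -1.23 ± 0.11 in p2k1-3 and -1.300 ± 0.12 in Col-0 (adjusted p = 6.34e-09 to 7.36e-07), which is a smaller point estimate in the lines with bdg-8, although neither bdg-8 against Col-0 (0.47 ± 0.16, adjusted p = 0.0888) nor p2k1-3 bdg-8 against p2k1-3 (0.31 ± 0.16, adjusted p = 0.214) was called. EXPA3, EXPA4, EXPA11 and EXPA15 were also called lower in every genotype, by smaller amounts between -0.22 (EXPA15 in p2k1-3) and -0.70 (EXPA11 in p2k1-3 bdg-8). EXPA6 was called lower in p2k1-3 bdg-8 and bdg-8, and EXPA5 in p2k1-3 bdg-8.

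The root hair expansin EXPA7 was called in p2k1-3 bdg-8 (-0.43) and p2k1-3 (-0.43), and EXPA18, its partner in root hairs, in those lines and Col-0. Of 5 other root hair markers, 3 fell with ATP in p2k1-3 bdg-8, 0 in bdg-8, 2 in p2k1-3 and 0 in Col-0, and with replicates 1 and 2 alone 1 in p2k1-3 and 0 in each other line. Over all genes 16.5% were called lower in p2k1-3 bdg-8, 17.7% in bdg-8, 8.53% in p2k1-3 and 8.67% in Col-0. Of 5 green tissue markers, 2 fell with ATP in p2k1-3 bdg-8, 1 in bdg-8 and 0 in p2k1-3 and Col-0. With replicates 1 and 2 alone, 1 fell in p2k1-3 bdg-8 and 0 in each other line. The part of these markers in the EXPA7, EXPA18 and other member values was not tested. EXPA7 and EXPA18 overlap other annotated genes, and the strand setting of the counting was not given in the sources used here, so their counts are uncertain.

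The 6 tested loci of these families outside the 42 are set beside the shares of all genes. With ATP 1 fell in p2k1-3 bdg-8, where 16.5% of all genes were called lower and 17.1% higher. In bdg-8 0 were called, against 36.3% of all genes. In p2k1-3 2 fell, against 8.53% lower and 11.9% higher, and in Col-0 1 rose, against 13.2% higher and 8.67% lower. Replicates 1 and 2 alone gave 0 calls in every line, against 20.3% of all genes in p2k1-3 bdg-8, 23.1% in bdg-8, 8.96% in p2k1-3 and 11.9% in Col-0. In bdg-8, 1 of these loci had an unadjusted p under 0.05, a rise, and DESeq2 called 0. An unadjusted p under 0.05 on replicates 1 and 2 alone was reached by 1 locus in p2k1-3 bdg-8, a rise, and 0 in bdg-8. It was reached by 1 in p2k1-3, a fall, and 1 in Col-0, a rise. The fall called in p2k1-3 bdg-8 was thus not among these. The called rise in Col-0 was in the alpha-expansin EXPA12 (AT3G15370), which had 1.22, 0.566 and 0.948 CPM with ATP and 0.209, 0.555 and 0.470 CPM with mock in Col-0. Its lowest ATP library was barely above its highest mock library (log2 fold change 1.14 ± 0.35, adjusted p = 0.0202), and in p2k1-3 it was called lower (-1.06 ± 0.35, adjusted p = 0.0344). XTH13 was the other fall in p2k1-3 (-0.53 ± 0.17), and XTH14 the fall in p2k1-3 bdg-8 (-0.32 ± 0.10).

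Whether ATP responses differed between genotypes was tested as a difference of log2 fold changes. Between bdg-8 and Col-0, 12 of 40 members differed, 7 with a higher and 5 with a lower value in bdg-8, against 7.91% of all genes (5.76% higher and 2.15% lower). All 7 were XTH genes that rose more in bdg-8. TCH4 differed by 1.49 ± 0.14, adjusted p = 9.35e-08, and XTH23 by 1.27 ± 0.18, adjusted p = 2.4e-05. XTH18 differed by 0.97 ± 0.09, XTH17 by 0.82 ± 0.11, XTH24 by 0.74 ± 0.14, XTH4 by 0.48 ± 0.06 and XTH16 by 0.31 ± 0.08. The 5 with lower values were EXPA10 (-0.79 ± 0.10), EXPA8 (-0.76 ± 0.23), EXPA1 (-0.64 ± 0.09), EXPA3 (-0.31 ± 0.08) and XTH6 (-0.57 ± 0.14), so these expansins fell further in bdg-8. Replicates 1 and 2 alone left 6 of them called, TCH4, XTH23, XTH18, XTH17, XTH4 and EXPA10, against 2.18% of all genes. For XTH4 and XTH16 the ATP libraries of bdg-8 were not above those of Col-0, and the larger fold came with lower mock libraries. XTH19 was higher in bdg-8 under both treatments and its response was not called different (0.17 ± 0.15, adjusted p = 0.617).

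**Figure D3:**
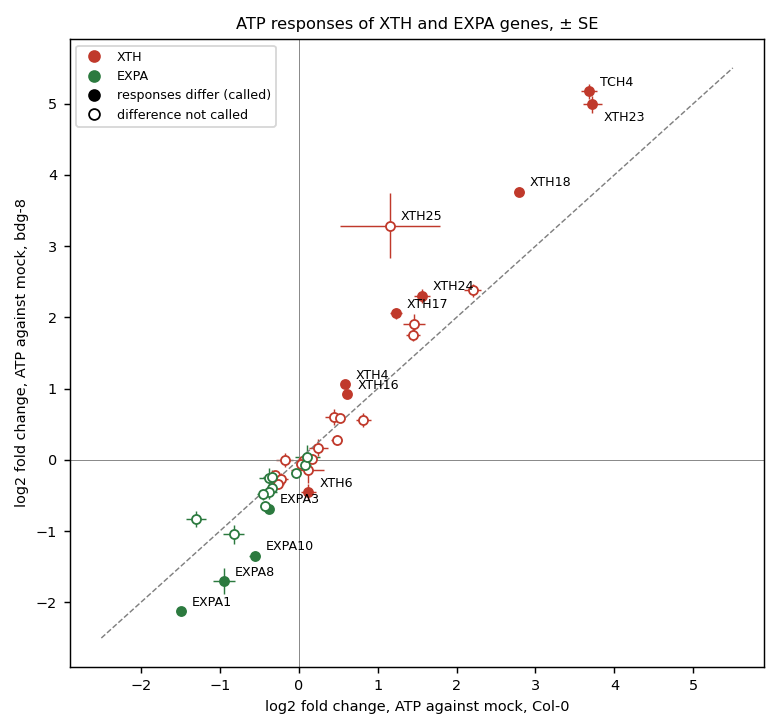
Log2 fold change of ATP against mock in bdg-8 (vertical axis) and Col-0 (horizontal axis) for the 40 tested genes, ± SE, with filled points where the 2 responses differed at an adjusted p under 0.05. TCH4, with 5.17 in bdg-8 and 3.68 in Col-0, lies above the dashed line of equal response, and EXPA1, with -2.13 in bdg-8 against -1.49 in Col-0, lies below it.

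The same comparison made without the intact receptor gene, p2k1-3 bdg-8 against p2k1-3, gave 17 of 40 members against 16.2% of all genes (9.85% higher and 6.38% lower), and 8 with replicates 1 and 2 alone, against 6.03%. In the same contrast 3 of 5 green tissue markers were called lower (median -0.35 over the 5), and 0 with replicates 1 and 2 alone; their part in the members' values was not tested. Higher values were found for 9 XTH genes, led by XTH18 (1.63 ± 0.09, adjusted p = 1.05e-11) and XTH23 (1.49 ± 0.16, adjusted p = 1.88e-07), with TCH4 at 1.298 ± 0.13, XTH19 at 1.131 ± 0.14 and XTH17 at 0.98 ± 0.11. Lower values were found for 4 XTH and 4 EXPA genes, led by EXPA8 (-1.27 ± 0.24) and XTH6 (-1.20 ± 0.14), with EXPA1 at -0.60 ± 0.09 and EXPA10 at -0.55 ± 0.09.

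The p2k1-3 mutation in the wild-type background came with changed responses of few members. Between p2k1-3 and Col-0, 4 of 40 members differed, all lower in p2k1-3, against 4.48% of all genes (0.681% higher and 3.8% lower). They were XTH18 (-0.77 ± 0.09, adjusted p = 6.44e-06), XTH23 (-0.67 ± 0.17), XTH19 (-0.65 ± 0.16) and EXPA9 (-0.41 ± 0.09), of which XTH18 was the 1 called with replicates 1 and 2 alone, against 0.709% of all genes. The XTH genes rose less in p2k1-3, while EXPA9 fell further there. The TCH4 difference was -0.40 ± 0.13, adjusted p = 0.0955, and was not called. The smaller XTH23 fold in p2k1-3 came with a higher mock level and overlapping ATP levels, whereas XTH18 and XTH19 had lower ATP levels in p2k1-3. Between p2k1-3 bdg-8 and bdg-8, 3 members differed, 1 higher and 2 lower, against 0.638% of all genes (0.152% higher and 0.486% lower). TCH4 had a smaller rise in the double mutant (-0.59 ± 0.14, adjusted p = 0.0401), EXPA9 a deeper fall (-0.47 ± 0.10) and XTH9 a larger rise (0.42 ± 0.10). For TCH4 the ATP libraries of p2k1-3 bdg-8 and bdg-8 overlapped, and the mock libraries of p2k1-3 bdg-8 were the higher ones. None of these 3 was called with replicates 1 and 2 alone (0.00952% of all genes were), where 3 XTH and 1 EXPA genes had an unadjusted p under 0.05.

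Without ATP, bdg-8 altered members in both directions. Against Col-0, bdg-8 changed 24 of 40 members, 11 higher and 13 lower, against 36.5% of all genes (18% higher and 18.5% lower). XTH genes gave 8 rises and 9 falls, and EXPA genes 3 rises and 4 falls. On replicates 1 and 2 alone 15 members were called, against 15.1% of all genes. XTH19 changed most, at 18.6 ± 1.09 CPM in bdg-8 and 6.94 ± 1.1 CPM in Col-0 (SD, n = 3 each; log2 fold change 1.43 ± 0.12, adjusted p = 5.06e-09). EXPA8 fell to 12.4 ± 0.484 CPM in bdg-8, against 25.04 ± 1.37 CPM in Col-0 (log2 fold change -1.01 ± 0.14, adjusted p = 6.2e-06). XTH7 (-0.74 ± 0.05) and XTH6 (-0.69 ± 0.10) were also lower, as was TCH4 (-0.62 ± 0.10, adjusted p = 6.42e-05), whose mock libraries did not overlap those of Col-0. EXPA3 (-0.57 ± 0.06) fell, and EXPA17 (0.50 ± 0.10) rose.

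The double mutant against p2k1-3 without ATP showed 21 of 40 members changed, 10 higher and 11 lower, against 31.2% of all genes (15.1% higher and 16.1% lower), and 7 with replicates 1 and 2 alone, against 10.3%. Leaving aside XTH25, at 1.87 on low counts, XTH19 (1.28 ± 0.11, adjusted p = 1.36e-08) and EXPA8 (-0.96 ± 0.15, adjusted p = 2.71e-05) again led. EXPA1 (-0.65 ± 0.06), XTH7 (-0.59 ± 0.05) and XTH20 (0.49 ± 0.12) followed, and TCH4 was not called (-0.14 ± 0.10, adjusted p = 0.296). Of the 40 members, 1 was called for an unequal effect of bdg-8 in the p2k1-3 background and in Col-0, against 1.98% of all genes (0.572% higher and 1.41% lower). It was XTH6 (difference 0.65 ± 0.14, adjusted p = 0.0127), and it was not called with replicates 1 and 2 alone, where 0.00952% of all genes were. An unadjusted p under 0.05 was reached by 6 members with a higher and 4 with a lower value. DESeq2 called 3 higher and 1 lower, so the effect was not shown to be equal on the other members. Tissue markers moved with bdg-8 as well. The summed level of the 5 green tissue markers was 22251 to 29385 CPM in mock-treated bdg-8 and 33475 to 36237 CPM in mock-treated Col-0, and all 5 were called lower. Of the 5 dividing cell markers, 4 were called lower in bdg-8, with sums of 117 to 126 CPM in bdg-8 and 142 to 159 CPM in Col-0. In that comparison 1 of 5 root markers and 1 of 5 root hair markers were called higher, where 18% of all genes were. In p2k1-3 bdg-8 against p2k1-3, 3 of 5 green markers and 4 of 5 dividing cell markers were lower. There 3 of 5 root hair markers and 1 of 5 root markers were higher. On replicates 1 and 2 alone, p2k1-3 bdg-8 against p2k1-3 had 1 root marker called higher and no green, dividing cell or root hair marker called. In bdg-8 against Col-0, 2 green and 1 dividing cell markers were then called lower, and no root or root hair marker was called. Their part in the XTH and EXPA values was not tested.

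**Figure D4:**
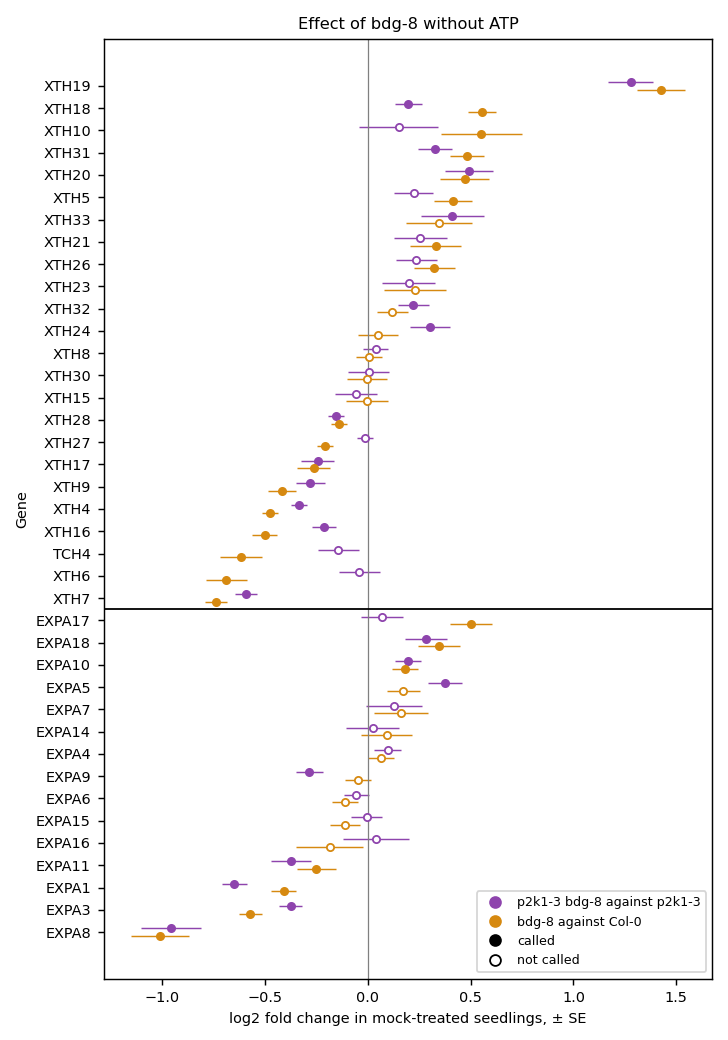
Log2 fold change ± SE without ATP for p2k1-3 bdg-8 against p2k1-3 (purple) and bdg-8 against Col-0 (orange), for 39 tested genes, with filled points where called; XTH25 is left out because its counts are low. XTH19 stands furthest right at 1.28 in the p2k1-3 background and 1.43 in the Col-0 background, and EXPA8 furthest left at -0.96 and -1.01.

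The p2k1-3 mutation had small effects without ATP. Against Col-0, p2k1-3 changed 5 of 40 members, 2 higher and 3 lower, against 5.29% of all genes (3.41% higher and 1.89% lower). All 5 were XTH genes. XTH23 (0.64 ± 0.14, adjusted p = 0.008) and XTH18 (0.32 ± 0.07) were higher, and XTH6 (-0.40 ± 0.10), XTH7 (-0.21 ± 0.05) and XTH16 (-0.20 ± 0.06) lower. TCH4 was not called (0.10 ± 0.10, adjusted p = 0.652). No EXPA member was called by edgeR or DESeq2, and 3 had an unadjusted p under 0.05. On replicates 1 and 2 alone edgeR called 0 members and 0.405% of all genes, and 4 had an unadjusted p under 0.05, all XTH genes. In p2k1-3 bdg-8 against bdg-8, 4 XTH genes were higher, against 0.667% of all genes (0.381% higher and 0.286% lower). They were XTH23 (0.61 ± 0.14), TCH4 (0.57 ± 0.10, adjusted p = 0.00625), XTH24 (0.53 ± 0.10) and XTH4 (0.17 ± 0.04). On replicates 1 and 2 alone none of them was called (0.0286% of all genes were), and 5 members had an unadjusted p under 0.05.

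Genes that make and hold the same wall polymers were set beside the members. Among 14 genes of xyloglucan synthesis, ATP raised 6 in p2k1-3 bdg-8, 7 in bdg-8, 4 in p2k1-3 and 5 in Col-0. For this and the lists that follow, the shares of all genes called higher with ATP were 17.1% in p2k1-3 bdg-8, 18.7% in bdg-8, 11.9% in p2k1-3 and 13.2% in Col-0, and those called lower 16.5% in p2k1-3 bdg-8, 17.7% in bdg-8, 8.53% in p2k1-3 and 8.67% in Col-0. A single gene was called lower in each line except p2k1-3. The numbers of rises were the same for replicates 1 and 2 alone. CSLC4, the main glucan synthase of the xyloglucan backbone, rose by 2.35 ± 0.04 in p2k1-3 bdg-8, 2.54 ± 0.04 in bdg-8, 1.51 ± 0.03 in p2k1-3 and 1.92 ± 0.04 in Col-0. XXT1, which adds xylose side chains, rose by 2.52 ± 0.05 in p2k1-3 bdg-8, 2.704 ± 0.05 in bdg-8, 1.62 ± 0.05 in p2k1-3 and 1.84 ± 0.05 in Col-0. Both therefore rose in the same seedlings as the group II XTH genes. Of 10 genes of primary wall cellulose synthesis, 8 rose in p2k1-3 bdg-8, 9 in bdg-8, 9 in p2k1-3 and 8 in Col-0, and none was called lower or had an unadjusted p under 0.05 for a fall. Replicates 1 and 2 alone gave 7 rises in p2k1-3 bdg-8, 9 in bdg-8, 5 in p2k1-3 and 6 in Col-0. The largest of these was CESA5, a catalytic subunit, at 0.68 ± 0.05 in p2k1-3 bdg-8, 0.94 ± 0.05 in bdg-8, 0.46 ± 0.05 in p2k1-3 and 0.64 ± 0.05 in Col-0. The median log2 fold change over the xyloglucan list was 0.05 in p2k1-3 bdg-8, 0.13 in bdg-8, 0.04 in p2k1-3 and 0.06 in Col-0. Over the cellulose list it was 0.29 in p2k1-3 bdg-8, 0.38 in bdg-8, 0.21 in p2k1-3 and 0.23 in Col-0.

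The expansin superfamily itself was split. Of 7 tested beta-expansin and expansin-like genes, 4 rose in p2k1-3 bdg-8, 4 in bdg-8, 3 in p2k1-3 and 4 in Col-0. The falls were of beta-expansins, 2 in each line except p2k1-3, where there was 1. Replicates 1 and 2 alone gave 4 rises and 1 fall in p2k1-3 bdg-8, 4 rises and 2 falls in bdg-8, and 3 rises and 0 falls in both p2k1-3 and Col-0. The rises were all in the expansin-like branch, whose wall-loosening activity has not been established. EXLA1 rose by 4.12 ± 0.07 in p2k1-3 bdg-8, 4.48 ± 0.07 in bdg-8, 3.41 ± 0.07 in p2k1-3 and 3.77 ± 0.07 in Col-0, and EXLA3 by 3.57 ± 0.13 in p2k1-3 bdg-8, 3.57 ± 0.13 in bdg-8, 2.91 ± 0.15 in p2k1-3 and 3.07 ± 0.14 in Col-0. Acid growth genes, which set the wall pH at which alpha-expansins work, gave 4 falls of 7 tested in p2k1-3 bdg-8, 5 in bdg-8, 2 in p2k1-3 and 0 in Col-0, and none was called higher. In Col-0, 2 of them had an unadjusted p under 0.05 and DESeq2 called 0. With replicates 1 and 2 alone, where 8 were tested, there were 4 falls in p2k1-3 bdg-8, 3 in bdg-8, 1 in p2k1-3 and 0 in Col-0. SAUR22, a small auxin-induced activator of the proton pump, changed by -1.52 ± 0.40 in p2k1-3 bdg-8 and -1.80 ± 0.41 in bdg-8. The lowest value of any tested acid growth gene was -0.45 in p2k1-3 and -0.52 in Col-0. Of 3 other TOUCH genes, which encode calmodulin and calmodulin-like proteins, 3 rose with ATP in each line except p2k1-3, where 2 rose, with the same counts for replicates 1 and 2 alone. TCH3 changed by 3.15 ± 0.12 in p2k1-3 bdg-8, 3.40 ± 0.12 in bdg-8, 1.78 ± 0.12 in p2k1-3 and 3.25 ± 0.13 in Col-0, and TCH2 by 2.84 ± 0.06 in p2k1-3 bdg-8, 3.18 ± 0.06 in bdg-8, 1.87 ± 0.06 in p2k1-3 and 2.38 ± 0.06 in Col-0.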

How the data were processed

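Raw counts of reads per gene were deposited by the authors as 1 table per library, for 24 libraries of seedling mRNA. HTSeq 0.13.5 and STAR 2.7.4a, with cutadapt 1.13 and MultiQC 1.9, are named per the submitters' processing notes. Settings, strand mode, annotation and build are not given in the sources used here. The 5 HTSeq summary entries (7.60 to 12.2% of each library, including 4.03 to 4.40% ambiguous and 3.13 to 7.59% not uniquely aligned reads) entered neither library sizes nor tests, and reads of similar XTH or EXPA genes can be among them.

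The counts were fitted in R 4.3.3 with edgeR 4.0.16, as 1 quasi-likelihood model with 1 mean per group, TMM scaling (factors 0.954 to 1.07) and the default filter on low counts, which kept 20995 genes and left 16 residual degrees of freedom (median biological coefficient of variation 4.77%). The 13 comparisons were contrasts of that model, with Benjamini-Hochberg adjustment over all genes tested. SEs were derived from the F statistic, and CPM are counts scaled by the TMM library sizes. The fit was tested on simulated data with independent libraries. These lack the pattern among replicates described with the results, so that test cannot show how the pattern affects the calls. XTH25 was left out of the counts of members called with ATP after its values were seen. The alternatives were RLE size factors, DESeq2 1.42.0, no filter, a replicate block, leaving out each replicate number, and a fit on the groups compared.

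Members and gene lists were chosen with earlier results of these data known. Values per library are given for TCH4 and for members called with an absolute log2 fold change of at least 1 with ATP or between genotypes without ATP; others are given by count, range and up to 4 examples, and other lists by at most 2 called genes. Gene names and neighbours were read from RefSeq's TAIR10.1 gene table, which held all 42 members. No coordinates or sequences are given because the build is not known.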

Additional observations from a re-analysis of the deposited data

Results flagged for a closer look

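The ATP response of the members named here differed between 2 genotypes by the test of the difference itself, stated as differences of log2 fold changes. This is the edgeR contrast described with the results, at an adjusted p under 0.05. Replicates 1 and 2 alone left 6 of 12 called between bdg-8 and Col-0, and 8 of 17 between p2k1-3 bdg-8 and p2k1-3. They left 1 of 4 between p2k1-3 and Col-0, and 0 of 3 between p2k1-3 bdg-8 and bdg-8. Between bdg-8 and Col-0 the difference was 1.49 for TCH4, 1.27 for XTH23, 0.97 for XTH18, 0.82 for XTH17, 0.74 for XTH24, 0.48 for XTH4 and 0.31 for XTH16. On the negative side it was -0.79 for EXPA10, -0.76 for EXPA8, -0.64 for EXPA1, -0.57 for XTH6 and -0.31 for EXPA3.

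Between p2k1-3 bdg-8 and p2k1-3 it was 1.63 for XTH18, 1.49 for XTH23, 1.298 for TCH4, 1.131 for XTH19, 0.98 for XTH17, 0.53 for XTH24, 0.47 for XTH30, 0.35 for XTH16 and 0.22 for XTH4. It was -1.27 for EXPA8, -1.20 for XTH6, -0.60 for EXPA1, -0.55 for EXPA10, -0.44 for XTH5, -0.41 for EXPA3, -0.20 for XTH28 and -0.17 for XTH27.

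Between p2k1-3 and Col-0 it was -0.77 for XTH18, -0.67 for XTH23, -0.65 for XTH19 and -0.41 for EXPA9. Between p2k1-3 bdg-8 and bdg-8 it was -0.59 for TCH4, -0.47 for EXPA9 and 0.42 for XTH9. Without ATP, the effect of bdg-8 was called different in the p2k1-3 background and in Col-0 for 1 member, by 0.65 for XTH6. XTH6 was not called there with replicates 1 and 2 alone. The groups have 3 libraries each, so no library was tested for standing apart from its group.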

How the results depend on the processing

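Replicate 3 weighed most. Without it, 78 of the 214 called member values (1 value per gene and comparison) lost their call and 0 gained one. Leaving out replicate 1 lost 16 and gained 31, and leaving out replicate 2 lost 16 and gained 26. DESeq2 lost 2 and gained 8, RLE size factors lost 1 and gained 1, no filter on low counts lost 2 and gained 2, and a fit on the groups compared alone lost 9 of 213 and gained 7. Leaving XTH25 out, an alternative chosen after seeing the data, took 1 call from each mutant's ATP count and 0 from that of Col-0. No called value changed sign under any of the 8 alternatives. Over the fits that leave out a replicate, the number of members called, XTH25 included, ran from 23 to 30 for ATP in Col-0, from 22 to 29 in p2k1-3, from 26 to 32 in bdg-8 and from 28 to 35 in p2k1-3 bdg-8. Without ATP it ran from 0 to 11 for p2k1-3 against Col-0, 15 to 23 for bdg-8 against Col-0, 7 to 22 for p2k1-3 bdg-8 against p2k1-3, and 0 to 7 for p2k1-3 bdg-8 against bdg-8. For differences of the ATP response it ran from 1 to 9 for p2k1-3 against Col-0, 6 to 20 for bdg-8 against Col-0, 0 to 4 for p2k1-3 bdg-8 against bdg-8, and 8 to 19 for p2k1-3 bdg-8 against p2k1-3. For the bdg-8 effect without ATP in p2k1-3 against Col-0 it ran from 0 to 4. That last count, 1 in the model used, was 2 with no filter on low counts and 4 with DESeq2. A fit on the groups compared alone called 0 members, against 4, for p2k1-3 bdg-8 against bdg-8 without ATP, and 7, against 4, for the ATP response of p2k1-3 against Col-0. The cause was not tested. XTH25 had too few counts to enter some of these smaller fits, and its values are the least precise.

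With the replicate number as a block, 1 call was lost and 7 were gained, and the bdg-8 effect without ATP in p2k1-3 against Col-0 was called for 3 members instead of 1. Deviations of same-numbered libraries correlated from -0.136 to 0.246 (median 0.0268 over 84 pairs, 16 of them over 0.1), and 20 of 24 libraries correlated best with their own number, which is a hint from the data and not the design.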
